A study of Mus musculus with 6 samples.

Results

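The fatty acid oxidation genes described here are 9 genes chosen by name: Cpt1a, Cpt2, Acadm, Acadl, Acadvl, Hadha, Hadhb, Ucp2 and Plin2. They are 9 of 37732 genes that could be joined across all 6 libraries. All 9 were among the 14236 genes kept by a filter on low counts.

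The study measured gene expression by RNA-seq in a mouse model of B-cell acute lymphoblastic leukaemia (B-ALL). C57BL/6 mice had been transplanted with lineage-negative fetal liver cells made to express the oncogene N-Myc and a GFP reporter, so every group carries the same oncogene. Leukaemic mice were normally fed (control) or fasted for 1 day or 2 days, and GFP+B220+ cells were then sorted from their bone marrow. The 3 groups have 2 libraries each, titled replicates 1 and 2 in the labels. They are written as run 1 and run 2 here because most genes agree within sampling noise between them. The labels do not say that they are sequencing runs of 1 sample. How many mice went into each library, and their age, is not given.

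Long-chain fatty acids are oxidised in mitochondria. Cpt1a, on the outer membrane, links the acyl group to carnitine and is the regulated step of entry. A carrier (Slc25a20) passes the acylcarnitine across the inner membrane, where Cpt2 returns the acyl group to CoA. Acyl-CoA dehydrogenases for very long (Acadvl), long (Acadl) and medium (Acadm) chains start each round of beta-oxidation, and the trifunctional protein, made of the Hadha and Hadhb subunits, carries out the later steps on long chains. Malonyl-CoA, made by acetyl-CoA carboxylases, inhibits Cpt1a, and fasting is known to raise fatty acid oxidation in liver and muscle through PPAR nuclear receptors. The last 2 of the 9 genes are not enzymes of beta-oxidation. Ucp2 encodes a carrier of the inner mitochondrial membrane, and Plin2 encodes a coat protein of lipid droplets. The label of the set therefore fits 7 of its 9 members in the strict sense.

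The stretches of sequence that bear on the results are given 5′ to 3′. The first is the promoter of Cpt1a, the only 1 of the 9 genes that passed the call rule. It spans 250 bases before and 20 bases after the RefSeq start, at chr19:3323051-3323320 on the plus strand (RefSeq, GRCm38.p6). Capitals mark, on either strand, the CCAAT box, the GC box GGGCGG and the sequence AGGTCA, which is the half-site of nuclear receptors such as the PPARs.
Cpt1a promoter: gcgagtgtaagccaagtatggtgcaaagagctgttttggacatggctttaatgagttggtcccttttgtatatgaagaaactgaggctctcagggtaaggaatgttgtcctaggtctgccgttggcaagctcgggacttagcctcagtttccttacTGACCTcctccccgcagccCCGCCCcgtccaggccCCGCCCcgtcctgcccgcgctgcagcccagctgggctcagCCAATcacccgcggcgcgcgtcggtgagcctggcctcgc
The matching window of Plin2, a gene that PPARs are known to induce in other tissues, lies on the minus strand at chr4:86670040-86670309 (RefSeq, GRCm38.p6). Capitals mark AGGTCA and CACGTG, the E-box that MYC proteins bind.
Plin2 promoter: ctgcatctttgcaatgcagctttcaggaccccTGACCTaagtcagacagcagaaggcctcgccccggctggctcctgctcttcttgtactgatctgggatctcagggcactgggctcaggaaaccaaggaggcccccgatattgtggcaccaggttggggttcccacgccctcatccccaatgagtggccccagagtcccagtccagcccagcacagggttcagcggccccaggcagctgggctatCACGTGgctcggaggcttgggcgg
Hadha and Hadhb are transcribed away from each other, and their annotated starts in the files lie 85 bases apart. That gap, at chr5:30155163-30155247 and written on the strand of Hadhb (RefSeq, GRCm38.p6), has GGGCGG in capitals.
Hadha-Hadhb gap: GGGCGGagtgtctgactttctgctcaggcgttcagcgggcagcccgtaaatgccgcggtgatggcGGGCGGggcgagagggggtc
The last stretch is no part of the Acadl messenger RNA. It belongs to the processed pseudogene Gm15793, which lies in an intron of Acadl, and is shown because most reads counted for Acadl were non-unique intron reads. It lies on the minus strand at chr1:66849152-66849343 (GENCODE M21 transcripts, GRCm38). Capitals mark a run of 162 bases that is identical to a transcript of the ribosomal protein gene Rpl12.
Gm15793 stretch: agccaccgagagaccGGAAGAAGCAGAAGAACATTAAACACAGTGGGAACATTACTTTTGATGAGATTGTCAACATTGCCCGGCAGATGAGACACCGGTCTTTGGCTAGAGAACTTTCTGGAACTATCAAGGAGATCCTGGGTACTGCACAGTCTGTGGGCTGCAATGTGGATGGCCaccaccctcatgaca

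Within windows of 270 bases from 32851 RefSeq promoters, CACGTG was found in 6.57%, CCAAT in 35.4% and GGGCGG in 34.1%, counting both strands. AGGTCA was found in 4914 of the windows, and the PPAR-type direct repeat, which is made of 2 copies of AGGTCA with 1 base between them, in 11. Among the 9 genes, AGGTCA was found in the windows of Cpt1a, Acadm, Acadvl and Plin2, once in each. CACGTG was found in the window of Plin2 alone, across the RefSeq start, and the direct repeat in the window of no member. These are matches of letters and were not tested as binding sites.

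Depth and the makeup of the sort set what the values can show. Total gene reads per library ran from 19368326 to 45862844, and the members had 280 to 95964 reads each per library. The runs of a group agree within sampling noise for most genes. For each gene the squared difference between libraries was divided by its sampling variance. The median over genes was then divided by the median that sampling noise alone would give, so that 1 means sampling noise. This ratio was 1.10 on unique gene reads within groups and 6.80 to 24.1 between groups. On total gene reads, from which the levels here come, it was 1.35 to 1.38 inside a group and 8.24 to 26.5 across groups. Between the replicates of a group, 3.95% to 4.78% of genes differed by over 3 SD on total gene reads, and 0.85% to 1.06% on unique gene reads. The mean over genes of squared difference over sampling variance was 13.1 to 15.9 on total and 3.21 to 4.4 on unique gene reads. A minority of genes thus differed well beyond sampling noise. Because most genes agreed, each group was counted as 1 sample (n = 1) and no p-value is given, so replicates cannot check any difference between groups. The sorted cells had the B-lineage markers their label calls for, with a summed level over 8 genes of 3013 CPM (gene counts scaled to a common library size) in control, 3345 at 1 day and 2956 at 2 days. Markers of other marrow cells were present and moved between groups. In the order control, 1 day and 2 days, 8 neutrophil genes summed to 989, 642 and 850 CPM, 9 monocyte and macrophage genes to 105, 89.8 and 149 CPM, and 8 erythroid genes to 441, 563 and 993 CPM. The 8 T and NK genes summed to 1.97 to 4.41 CPM, and 8 stromal and adipocyte genes to 1.34 to 1.75 CPM, with no read of Plin1, the coat protein of adipocyte lipid droplets, in any library. In bulk RNA, fewer cells of a type and less RNA per cell cannot be told apart.

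Cpt1a was the only 1 of the 9 genes called in any comparison. A gene was called higher or lower when its levels were 1.5-fold apart or more, one way, in the mean and in both runs. By that rule 0 of 9 members were called at 1 day against control, where 4.29% of all 14236 genes were called higher and 2.79% lower. At 2 days against control, 1 of 9 was called higher and 0 lower, beside 9.52% and 10.1% of all genes. At 2 days against 1 day, 0 of 9 were called, beside 5.63% higher and 8.59% lower. One call among 9 genes is near the background of the 2-day comparison. At a 2-fold threshold 0 of 9 were called in each comparison, beside 1.5% higher and 0.78% lower of all genes at 1 day, 4.46% and 5.71% at 2 days, and 1.95% and 4.74% at 2 days against 1 day. The median log2 fold of the 9 genes was −0.03 at 1 day and −0.05 at 2 days against control, where the medians of all genes were 0.00 and 0.01. The 1-day and 2-day comparisons share the control libraries.

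**Figure D1:**
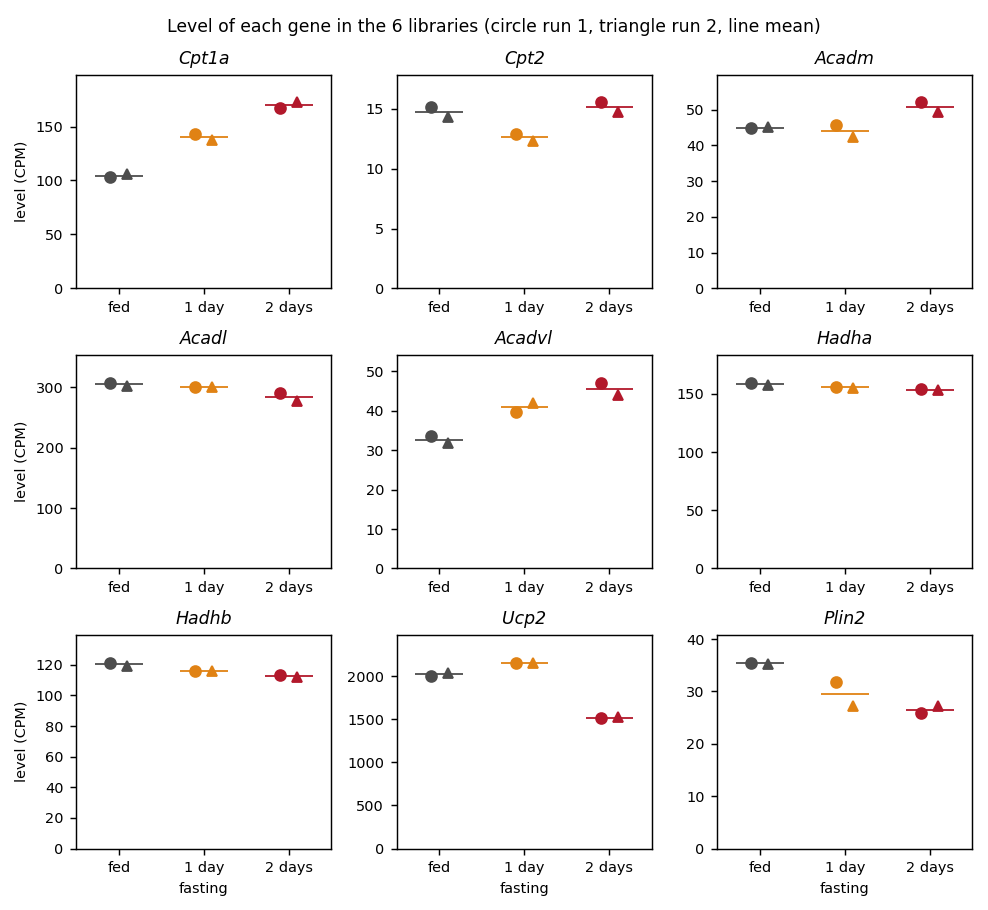
Level of each of the 9 genes in CPM (y axis, from 0, a separate scale per panel) in fed control, 1-day fasted and 2-day fasted cells (x axis). Circles are run 1, triangles are run 2 and lines are the mean of both runs. Cpt1a ran from 103 CPM in control run 1 to 172 CPM in 2-day run 2. The 6 libraries of Hadha lay within 153 to 160 CPM.

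Of the 9 genes, the one that controls entry into mitochondria had the largest difference from control at both times. Cpt1a (chr19:3323301-3385732, plus strand, mm10) stood at 103 and 106 CPM in run 1 and run 2 of the control, at 143 and 137 CPM at 1 day, and at 167 and 172 CPM at 2 days. The groups did not overlap, and the order was control, then 1 day, then 2 days. On all gene reads Hadha and Hadhb, with much smaller folds, had no overlap between groups either. The share of all genes without overlap was not counted, so a lack of overlap, here and below, sets no member apart. Cpt1a rose 1.62-fold at 2 days (log2 fold 0.70, 0.69 in run 1 and 0.71 in run 2), with a 95% counting interval of 1.56 to 1.66. The interval is exact binomial and covers counting error only. At 1 day the log2 fold was 0.43 (0.47 and 0.38 in the runs), short of the call. From 1 day to 2 days it was 0.27. On average 97.5% of Cpt1a reads were unique exon reads, and the 2-day log2 fold was 0.68 on those and 0.64 on unique junction reads. The 2-day fold of Cpt1a stood above those of 89.7% of the genes tested. The summed levels of the monocyte and macrophage markers and of the erythroid markers were also higher at 2 days than in control. The part of these cells in the level of Cpt1a was not tested.

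Cpt2 (chr4:107903981-107923610, minus strand), the inner-membrane partner of Cpt1a, stood at 15.1 and 14.3 CPM in control, 12.9 and 12.3 CPM at 1 day, and 15.5 and 14.7 CPM at 2 days. Both 1-day libraries were below the other 4, and the control and 2-day libraries overlapped. The log2 fold was −0.22 at 1 day (95% counting interval −0.35 to −0.08) and 0.04 at 2 days (−0.07 to 0.20). Cpt1a and Cpt2 thus differed in their course. Within a library, exon reads per kilobase of Cpt1a over those of Cpt2 came to 3.94 and 4.22 in the control runs, 6.33 and 6.37 after 1 day, and 6.03 and 6.59 after 2 days. The ratio was higher in all 4 fasted libraries than in both control libraries, and the 1-day and 2-day values overlapped. Slc25a20, the carnitine-acylcarnitine carrier between them, stood at 16.4 and 17.5 CPM in control, 26.5 and 24.7 CPM at 1 day, and 25.9 and 25.7 CPM at 2 days. Its log2 folds were 0.60 and 0.61, with run 2 below 1.5-fold in both comparisons, so it was not called. It was called at 2 days when libraries were scaled by their totals alone (0.65), and at both times without control replicate 2 (0.65 and 0.65). Leaving out replicate 2 of the fasted group instead also gave a call at both times.

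The 3 acyl-CoA dehydrogenases took different courses. Acadvl (chr11:70010183-70015411, minus strand) stood at 33.6 and 31.8 CPM in control, 39.7 and 42.0 CPM at 1 day, and 47.2 and 44.0 CPM at 2 days. The groups did not overlap and were ordered as for Cpt1a. Its log2 fold was 0.32 at 1 day and 0.48 at 2 days (0.49 and 0.47 in the runs), short of the call. Acadvl and Dvl2, a gene of Wnt signalling on the opposite strand, overlap by 2119 bases, and 17.1% to 23.6% of Acadvl reads were non-unique exon reads. The strand setting of the counting is not given, so reads in the overlap cannot be told apart. On unique exon reads the Acadvl folds were 0.27 and 0.42, and Dvl2 itself had folds of −0.04 and −0.33.

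Acadm (chr3:153922357-153944632, minus strand) stood at 44.9 and 45.1 CPM in control, 45.8 and 42.2 CPM at 1 day, and 52.0 and 49.3 CPM at 2 days. Control and 1-day libraries overlapped, and both 2-day libraries were above them. The log2 folds were −0.03 and 0.17, neither near the call.

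Acadl (chr1:66830839-66863277, minus strand) appeared at 308 and 301 CPM in control, 299.9 and 300.5 CPM at 1 day, and 291 and 277 CPM at 2 days. These levels are mostly not those of Acadl exons, since 74.5% to 78.5% of the reads counted for the gene were non-unique intron reads, at 215 to 232 CPM in every library. The intron holds the pseudogene Gm15793 printed above, and 51.0% of its stretches of 51 bases, the read length, also occur in 13 other genes. The files do not place reads within the intron, so that the pseudogene is their source was not tested. On unique exon reads Acadl stood at 104 and 105 CPM in control, 97.9 and 101 CPM at 1 day, and 84.3 and 83.2 CPM at 2 days. Both 2-day libraries were below the other 4. The 2-day log2 fold was −0.32 on unique exon reads and −0.10 on all gene reads, and junction reads, which span 2 exons, gave −0.29. None of these passes the call rule. The RPKM values that the authors deposited, 131.6 to 143 for Acadl, divide all gene reads by exon length, whereas an RPKM from its exon reads alone, scaled to all exon reads of the library, came to 33.4 to 42.1.

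Set against each other within a library, the very-long-chain and medium-chain dehydrogenases were higher relative to the long-chain one at 2 days. Exon reads per kilobase of Acadvl over those of Acadl came to 0.319 and 0.299 in the control runs, 0.398 and 0.413 after 1 day, and 0.547 and 0.528 after 2 days. No group overlapped another. Acadm over Acadl came to 0.372 and 0.374 in the control runs, 0.399 and 0.360 after 1 day, and 0.538 and 0.529 after 2 days, and only the 2-day libraries stood apart.

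Both genes of the trifunctional protein stood within 0.10 of control on the log2 scale at each time. On all gene reads the groups of each did not overlap, with control highest and 2 days lowest. Hadha (chr5:30118301-30155162, minus strand) stood at 160 and 158 CPM in control, 156 and 155 CPM at 1 day, and 154 and 153 CPM at 2 days. Its log2 folds were −0.03 (95% counting interval −0.07 to 0.01) and −0.05 (−0.08 to 0.00). Hadhb (chr5:30155248-30184593, plus strand), which starts across the gap printed above, stood at 121 and 119 CPM in control, 116 and 116 CPM at 1 day, and 113 and 112 CPM at 2 days. Its folds were −0.05 and −0.10. Of the Hadhb reads, 84.0% to 85.8% were non-unique exon reads, and the processed pseudogene Gm13910 shares 18.1% of the 51-base stretches of its transcripts. On the unique exon reads, 11.5% to 12.5% of its total, the Hadhb folds were −0.01 and −0.00. Hadha over Hadhb, in exon reads per kilobase, stayed within 1.62 to 1.69 in all 6 libraries.

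**Figure D2:**
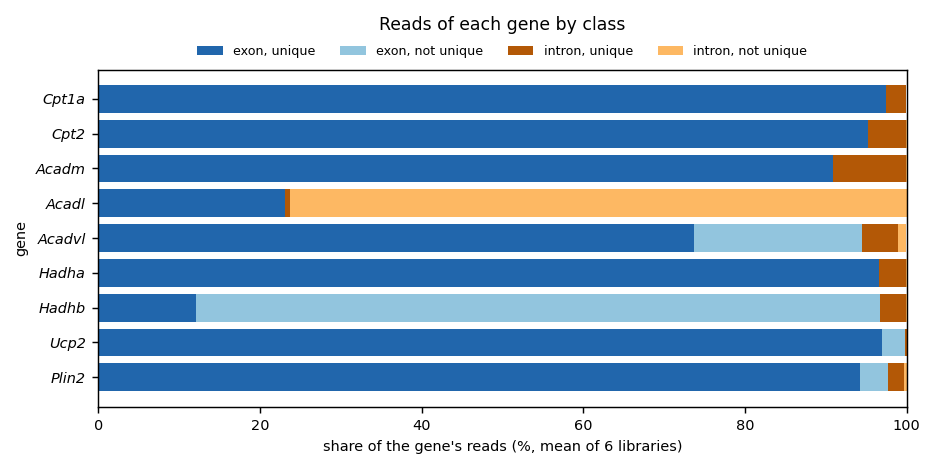
Share of each gene's reads in 4 classes (x axis, percent, mean of the 6 libraries): exon or intron, unique or not unique in mapping. Unique exon reads made up 97.5% of Cpt1a reads on average but 23.1% of Acadl reads, which were mostly non-unique intron reads. Hadhb reads were mostly non-unique exon reads, 84.0% to 85.8% of the total.

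Ucp2 (chr7:100493337-100502020, plus strand) was the most abundant of the 9 and was lowest at 2 days. It stood at 2007 and 2041 CPM in control, 2152 and 2159 CPM at 1 day, and 1517 and 1525 CPM at 2 days. The 1-day libraries were highest, the 2-day libraries lowest, and no group overlapped another. The log2 fold against control was 0.09 at 1 day and −0.41 at 2 days (−0.40 and −0.42 in the runs), and from 1 day to 2 days it was −0.50, which is 0.71 of the 1-day level. None reached 1.5-fold. Reads of Ucp2 were 97.0% unique exon reads, which gave the same 2-day fold of −0.41.

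Plin2 (chr4:86648386-86670060, minus strand), the lipid droplet coat gene, stood at 35.5 and 35.2 CPM in control, 31.8 and 27.3 CPM at 1 day, and 25.9 and 27.1 CPM at 2 days. All 4 fasted libraries were below both control libraries, and at 1 day the runs were farther apart than for any other member. The log2 fold was −0.26 at 1 day (−0.16 and −0.37 in the runs) and −0.41 at 2 days (−0.45 and −0.37), neither a call. Plin2 is also expressed in macrophages. The list of monocyte and macrophage markers summed to 105 CPM in control and 149 CPM at 2 days, most of it Lyz2 (73.4 and 104 CPM). Within that list Csf1r went from 2.06 to 5.17 CPM and Emr1 from 0.724 to 1.78 CPM, while Mrc1 went from 2.51 to 1.97 CPM. The part of macrophages in the level of Plin2 was not tested.

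**Figure D3:**
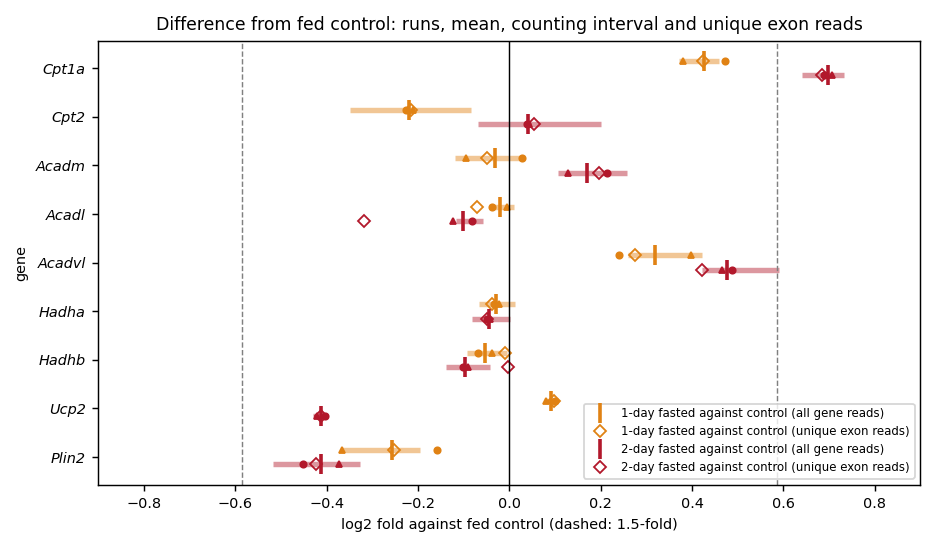
Log2 fold against fed control (x axis) of each of the 9 genes (y axis), at 1 day (orange) and 2 days (red). Vertical ticks are folds of the mean, circles and triangles are run 1 and run 2, pale bars are 95% counting intervals, diamonds are folds on unique exon reads, and dashed lines mark 1.5-fold. Cpt1a at 2 days lies beyond the dashed line, at 0.70, and the Acadl diamond at 2 days (−0.32) lies apart from its tick (−0.10).

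The order of abundance, compared per kilobase of exon, also shifted. In control the RPKM computed here from exon reads was 325 for Ucp2, 42.0 for Acadl, 32.4 for Hadha, 26.8 for Cpt1a, 19.9 for Hadhb, 15.7 for Acadm, 13.0 for Acadvl, 11.1 for Plin2 and 6.58 for Cpt2. No neighbours in that order overlapped between runs. At 1 day Cpt1a, at 35.9, had passed Hadha, at 31.6, and Acadvl and Acadm overlapped. At 2 days Cpt1a was second to Ucp2, at 43.0 against 244, ahead of Acadl at 33.6 and Hadha at 31.3. Hadhb, Acadvl and Acadm, at 18.6, 18.1 and 17.9, were then not separable in order, since Hadhb overlapped Acadvl and Acadvl overlapped Acadm.

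Genes with the course most like that of Cpt1a were sought among 7638 genes with at least 20 CPM in some group, by the distance between their 2 log2 folds against control and those of Cpt1a. The 5 nearest were Fmnl1, Ctsz, Cd22, Fbxl6 and Trmu, at distances of 0.0068 to 0.025 log2 units. Fmnl1, a formin of blood cells, had mean levels of 301, 405 and 490 CPM in control, at 1 day and at 2 days. Cd22, an inhibitory lectin of B cells, had 165, 218 and 266 CPM.

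Other genes of fatty acid metabolism were taken as 10 lists of 103 genes, of which 87 were tested. At 1 day against control 1 was called higher and 2 lower, at 2 days 9 higher and 5 lower, and the median log2 folds were −0.01 and −0.03. The 9 and 5 calls among 87 genes are to be read against 9.52% and 10.1% of all genes at 2 days, and the 1 and 2 calls against 4.29% and 2.79% at 1 day. At 2 days against 1 day 7 were higher and 3 lower, beside 5.63% and 8.59% of all genes, with a median of 0.00. Genes that control Cpt1a activity through malonyl-CoA and AMPK held 4 of the 9 higher calls at 2 days, among 10 tested, with a median of 0.46. Acacb, the carboxylase that makes malonyl-CoA at the mitochondrial surface, stood at 7.98 and 8.23 CPM in control, 14.5 and 14.4 CPM at 1 day, and 32.6 and 31.7 CPM at 2 days. It rose at both times, with log2 folds of 0.83 and 1.98. Mlycd, which degrades malonyl-CoA, also rose at 2 days, from a mean of 7.25 to 12.9 CPM (0.82). The AMPK subunit genes Prkag2 and Prkaa2 rose by 1.14 and 1.99 on the log2 scale, Prkaa2 from 0.448 to 2.08 CPM. The size of the Prkaa2 difference rests on 31 and 119 reads and ranged from 1.09 to 2.29 over the alternatives. The other AMPK subunit genes on the list were not called at 2 days. Prkaa1 went from 30.5 to 37.3 CPM (0.29) and Prkag1 from 73.8 to 67.6 CPM (−0.13), and Prkab1 and Prkab2 had folds of 0.47 and 0.45. Acaca, the cytosolic carboxylase, stood at 161, 127 and 145 CPM in the 3 groups and was not called. Per kilobase, Acacb over Acaca went from 0.0487 and 0.0511 in control to 0.222 and 0.225 at 2 days.

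**Figure D4:**
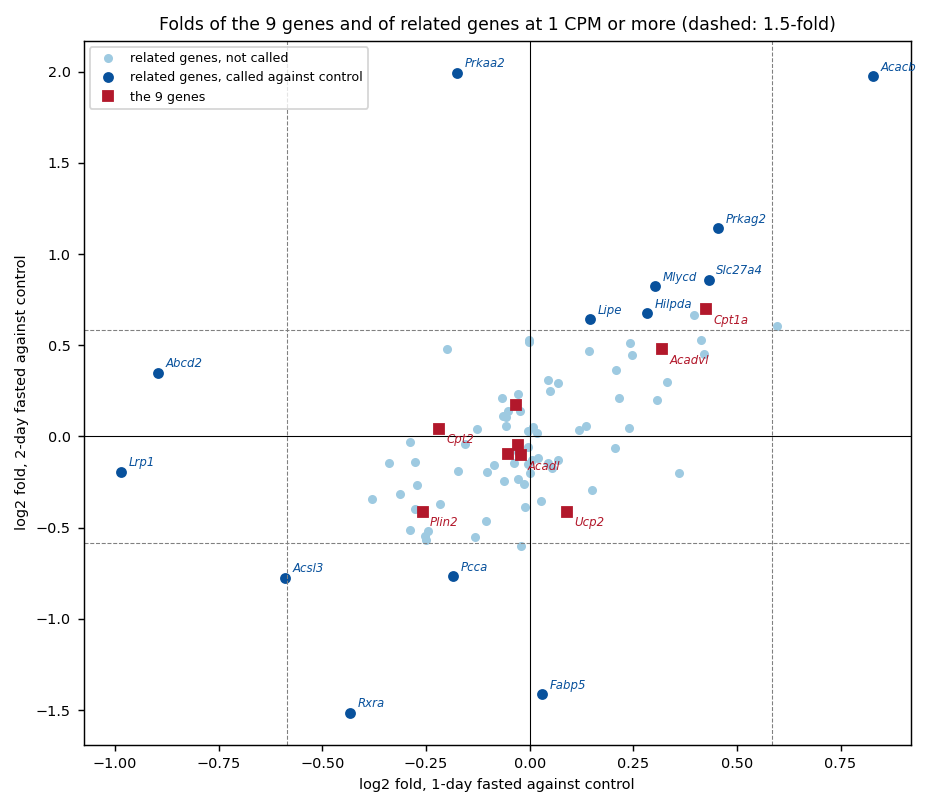
Log2 fold at 2 days (y axis) against log2 fold at 1 day (x axis), both against the same control libraries, for the 9 genes (red squares) and 81 related genes with at least 1 CPM in some group (blue, dark where called against control). Dashed lines mark 1.5-fold. Acacb (0.83 and 1.98) is at the upper right, Fabp5 (0.03 and −1.41) near the bottom, and 8 of the 9 genes lie inside the dashed lines, while Cpt1a (0.43 and 0.70) lies above the upper one.

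The other steps of beta-oxidation showed no common direction. Of 18 other mitochondrial enzymes and electron carriers, 0 were higher and 1 was lower at 2 days, with a median of −0.15. Across all genes 9.52% were called higher and 10.1% lower. Pcca, a subunit of propionyl-CoA carboxylase for odd-chain products, fell from 28.5 to 16.7 CPM (−0.76). Uncalled genes went both ways. Etfdh, which passes electrons from the dehydrogenases to ubiquinone, had a log2 fold of 0.51 and the thiolase gene Acaa2 one of 0.45. Acad10 had 0.67 (0.56 in run 1), Decr1 −0.52 and Etfa −0.40. Of 8 tested genes of acyl-CoA activation and the carnitine shuttle, Acsl3, an acyl-CoA synthetase, fell from 38.0 to 22.2 CPM (−0.77), and the list had a median of −0.10. No gene of the 11 tested in peroxisomes was called at 2 days (median −0.06). At 1 day the peroxisomal transporter gene Abcd2 was lower by the call rule, at a mean of 0.550 against 1.11 CPM (−0.90), from 40 and 71 reads. With a pseudocount of 1 CPM its fold was −0.45, and the authors' RPKM gave −0.57, neither a call.

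Storage and uptake genes moved singly, and their calls at 2 days are to be read against 9.52% of all genes higher and 10.1% lower. At 2 days 2 of 10 tested genes of lipid droplets and lipolysis rose (list median 0.04), namely Hilpda, an inhibitor of lipolysis (11.9 to 19.1 CPM, 0.67), and Lipe, hormone-sensitive lipase (9.09 to 14.2 CPM, 0.64). The Lipe fold was 0.55 on unique exon reads, which ends its call. Of 9 tested genes of uptake and binding, 3 rose and 1 fell at 2 days (median −0.19). The fatty acid transporter gene Slc27a4 rose from 10.4 to 19.0 CPM (0.86), and Fabp5, a fatty acid-binding protein, stood at 110, 112 and 41.1 CPM in the 3 groups and fell by 1.41 on the log2 scale. Lrp1, a lipoprotein receptor, was lower at 1 day (3.32 to 1.63 CPM, −0.99), a call lost in the authors' RPKM (−0.56). The other 2 higher calls of this list, Lpl (0.194 to 0.412 CPM) and Fabp4 (0.134 to 0.360 CPM), rest on 22 and 20 reads at 2 days, and both genes are also on the list of stromal and adipocyte markers.

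Of 12 tested PPAR regulators, 0 rose and 2 fell at 2 days (median −0.21), beside 9.52% of all genes higher and 10.1% lower. Rxra, a partner receptor of the PPARs, fell from 3.16 to 1.04 CPM (−1.51). Rxrb, the related receptor gene on the list, stood far higher, at 121, 141 and 140 CPM in the 3 groups. Its 2-day log2 fold was 0.21, which is no call. The coactivator gene Ppargc1a went from 0.568 to 0.107 CPM, which rests on 37 and 7 reads, and its 2-day level is near the 0.1 CPM added to each mean. Ppard was at 11.4 to 13.0 CPM in all 6 libraries, and Ppara had 0 to 3 reads per group. Among 12 PPAR-responsive genes 8 were tested, with a median of 0.45 at 2 days and 1 call, again Fabp4. Angptl4, an inhibitor of lipoprotein lipase, had a 2-day log2 fold of 0.53 and was not called. Pdk4, a kinase gene that fasting raises in muscle, had 0 to 1 reads in each group. None of 4 tested ketone body genes was called at 2 days (median 0.06), and of the other uncoupling protein genes 2 were tested with no call at 2 days (median 0.50), while Slc25a27 was called higher at 2 days (4.22 CPM) than at 1 day (2.59 CPM), at 0.68. That call is lost on exon reads alone, where the fold was 0.58.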

How the data were processed

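RNA of sorted bone marrow cells was sequenced as 51-base single-end reads, per the labels' protocols. Reads were aligned with TopHat2 to mm10 (both from the submitters' processing notes). The counter, its annotation and its strand setting are not given in the sources used. The deposited tables hold read counts per gene by class (total or unique, over the gene, exons, junctions and introns), per the file headers, and the RPKM values that the authors computed, which divide all gene reads by exon length and a library total. Run 1 lists 38355 genes and run 2 lists 38924. Of these, 37429 were matched on position and 303 more on name plus chromosome.

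Total gene counts were scaled to CPM by TMM (edgeR 4.0.16, R 4.3.3), and 14236 genes passed filterByExpr at a minimum count of 10. Log2 folds are those of the mean CPM of both runs with 0.1 CPM added to each. The labels title the 2 libraries of a group as replicates without saying that they come from separate mice. As they agree within sampling noise for most genes, they were counted as 1 sample and no test was made. The call rule asks for 1.5-fold in the mean and each run. All 9 members are named. From the other lists, genes called at 1 CPM or more in the higher group are named. More were chosen after their values were seen (Slc25a20, Acaca, Etfdh, Acaa2, Acad10, Decr1, Etfa, Angptl4, Lpl, Fabp4, Ppargc1a, Ppard, Ppara, Rxrb, Prkaa1, Prkab1, Prkab2, Prkag1, Pdk4, Dvl2, Rpl12, Lyz2, Csf1r, Emr1, Mrc1). Members, lists and marker lists were chosen with earlier results of these data known. Shared 51-base stretches were counted in GENCODE M21 transcripts, and promoters came from RefSeq (GRCm38.p6, 9 of 9 members matched). Alternatives were DESeq2 1.42.0 size factors, library totals alone, other read classes (not junction reads), the authors' RPKM and a pseudocount of 1 CPM. Further ones were no filter, a 2-fold threshold and leaving out each run. Unique exon reads were added after the read classes of Acadl and Hadhb were seen.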

Additional observations from a re-analysis of the deposited data

Results flagged for a closer look

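For Cpt2 and Ucp2 the 1-day and 2-day folds against control had opposite directions in both runs. The log2 fold of Cpt2 was −0.22 at 1 day and 0.04 at 2 days, and that of Ucp2 was 0.09 at 1 day and −0.41 at 2 days. The 2-day direction of Cpt2 is not stable: its fold was −0.0002 without control replicate 2 and −0.29 on the few unique junction reads, as against −0.53 on those reads at 1 day. Both comparisons share the control libraries, the difference between them was not tested, and none of the 4 folds reached 1.5-fold.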

How the results depend on the processing

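The count of members called was 0 at 1 day against control and 0 at 2 days against 1 day under every alternative run, and 1 at 2 days against control under every alternative but the 2-fold threshold, where it was 0. Of 351 alternative values of the members' log2 folds, 319 stayed within the 95% counting interval of the reported fold, 32 did not, and 1 changed a call (Cpt1a at 2-fold). The sign changed under 1 alternative each for 5 uncalled folds of at most 0.05 (Acadm and Hadhb at 1 day, Cpt2 at 2 days, and Hadha and Hadhb at 2 days against 1 day). Junction reads were not among these alternatives. On unique junction reads the 2-day folds against control of Hadhb and Cpt2 were 0.11 and −0.29, beside −0.10 and 0.04 on all gene reads. Leaving out each run in turn left the count at 0, 1 and 0 in the 3 comparisons. Of 546 such values of the 14 list genes, 30 changed a call. Of 195 values of 5 uncalled list genes (Slc25a20, Acaca, Etfdh, Acaa2 and Angptl4) 5 did, all of Slc25a20. With library totals alone the related genes called at 2 days were 11 higher and 5 lower among 87 tested, beside 19.9% of all genes called either way. No paired analysis was possible because each group counts as 1 sample and no test was made. With 1 sample a group, differences between mice cannot be told apart from fasting. Members with a low share of unique gene reads (Acadl, Hadhb) and a strand overlap (Acadvl) are the least certain on all gene reads. For Acadl 100% of the exon reads were unique. Cpt2, with 280 to 599 reads per library, has the widest counting intervals of the 9.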
